A study of Sus scrofa with 6 samples.

Results

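The zona pellucida glycoprotein genes are those that encode the coat of the oocyte, and the array measured 3 of them, ZP2, ZP3 and ZP4. They were taken as the probes whose single gene symbol in the platform annotation is ZP2, ZP3 or ZP4, which gave 1 probe per gene, so 3 genes of 9828 named on the array and 3 probes of 12258. Expression was measured on 6 single-colour Affymetrix arrays, each with RNA from a pool of 50 grade I porcine oocytes from pubertal crossbred Landrace gilts. In the group after maturation (3 pools), cumulus-oocyte complexes, which are oocytes enclosed in their somatic cumulus cells, had been cultured for 44 h at 38 °C under 5% CO2 in TCM-199 medium with serum albumin, cysteine, 10% porcine follicular fluid, and hCG and eCG at 2.5 IU/ml each. In the group before maturation (3 pools), oocytes from the same kind of gilt were taken without that culture, and their titles call them in vivo oocytes. Culture and maturation therefore cannot be told apart. The design text also names a brilliant cresyl blue (BCB) dye test as a means of sorting, and the labels assign no pool to either outcome of it. Removal of the cumulus cells before RNA extraction is not described in the sources used here.

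The zona pellucida is an extracellular matrix of glycoproteins that the growing oocyte secretes around itself. Sperm bind to it at fertilisation, and it is modified afterwards so that further sperm do not enter. In the pig the zona is built from the products of ZP2, ZP3 and ZP4, which share a ZP domain, the module through which they polymerise into filaments. ZP2 is the target of ovastacin, a protease released from cortical granules at fertilisation, as shown in mice. ZP3 and ZP4 are the zona proteins to which sperm binding has been ascribed in the pig. In the RefSeq gene table of assembly Sscrofa11.1, used here for names and order only, ZP2 lies between the protein-coding genes ANKS4B and DNAH3, ZP3 between DTX2 and SSC4D, and ZP4 between CHRM3 and RYR2.

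The question of the design is which transcripts differed in level between oocytes after and before maturation in culture. On the deposited log2 scale, ZP3 and ZP4 fell after maturation and ZP2 did not pass the test, while a scaling that holds the ribosomal protein genes level ended both calls and turned the values of ZP2 and ZP4 positive. ZP3 stood at 61.7% of its level before maturation, with a 95% interval of 50.5% to 75.3%. ZP4 stood at 75.7%, with an interval of 64.9% to 88.3%. For ZP2 the estimate was 89.3%, and its interval of 77.8% to 102% included no change. All percentages are antilogs of the mean log2 difference over 3 arrays per group.

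The ZP3 probe had log2 values of 10.95, 10.78 and 10.66 in replicates 1, 2 and 3 after maturation, against 11.70, 11.44 and 11.34 in replicates 1, 2 and 3 before it. The groups did not overlap, and the highest pool after maturation lay below the lowest pool before it. The mean was 10.80 ± 0.15 after and 11.49 ± 0.19 before maturation (SD, n = 3 each). ZP3 thus differed by -0.70 ± 0.13 (SE) on the log2 scale (limma adjusted p = 0.0104). In both groups replicate 1 held the highest and replicate 3 the lowest ZP3 value, and the differences between same-numbered arrays were -0.75, -0.66 and -0.68.

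The ZP4 probe had log2 values of 11.78, 11.71 and 11.54 in replicates 1, 2 and 3 after maturation, against 12.12, 12.02 and 12.10 before it. Here too every pool after maturation lay below every pool before it, and the wider spread was that of the matured pools, in which replicate 3 was the lowest. The mean was 11.68 ± 0.12 after and 12.08 ± 0.05 before maturation (SD, n = 3 each). The ZP4 difference was -0.40 ± 0.10 (SE) on the log2 scale (limma adjusted p = 0.0343). That call rested on all 6 arrays, since leaving out any one of them gave a limma adjusted p of 0.0640 to 0.0972, with differences of -0.45 to -0.33.

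The ZP2 probe had log2 values of 11.62, 11.65 and 11.59 in replicates 1, 2 and 3 after maturation, against 11.82, 11.71 and 11.83 before it. The groups did not overlap, but the gap between replicate 2 of each group was small, with a same-numbered difference of -0.06 against -0.20 and -0.24 in the other pairs. The mean was 11.62 ± 0.03 after and 11.79 ± 0.07 before maturation (SD, n = 3 each). The ZP2 difference was -0.16 ± 0.09 (SE) on the log2 scale, with a 95% interval of -0.36 to 0.03, and it was not called (limma adjusted p = 0.244).

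**Figure D1:**
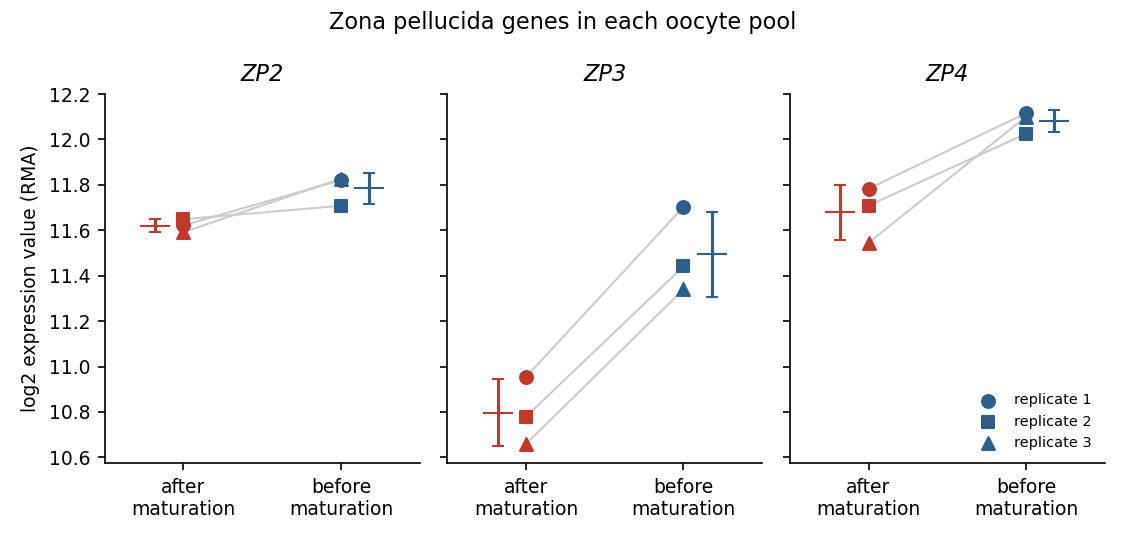
Log2 expression values (vertical axis) of ZP2, ZP3 and ZP4 in the 3 pools after maturation (red) and the 3 pools before it (blue), with a marker shape per replicate number, grey lines between same-numbered arrays, and bars for the mean ± SD. The 2 groups do not overlap for any of the genes on this deposited scale, and the gap is widest for ZP3 (10.80 against 11.49) and narrowest for ZP2 (11.62 against 11.79).

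Of the 3 zona genes 2 were called lower and 0 higher, where 8.07% of all 12258 probes were called lower and 3.21% higher with limma at an adjusted p under 0.05. A replicate block in the fit gave 621 probes higher and 1226 lower, against 394 and 989 without the block. All 3 had every array after maturation below every array before it, which held for 14.4% of all probes. With 3 genes these shares serve as a background to the single values and not as a test of the group. Titles call the pools biological replicates. The limma p-values and intervals rest on how far those pools differed, moderated towards the spread of all probes. In the fit without moderation ZP3 (adjusted p = 0.103) and ZP4 (adjusted p = 0.0975) were not called. In pooled oocyte RNA, fewer cells of a type and less RNA per cell cannot be told apart.

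How far the zona genes differed from each other was measured within arrays. The difference between 2 genes was taken within each array, so that any shift of a whole array cancels. The log2 value of ZP3 minus that of ZP2 was -0.67, -0.87 and -0.93 after maturation, against -0.12, -0.27 and -0.49 before it. The 2 sets did not overlap, and the change was -0.53 ± 0.13 (SE) on the log2 scale. The value of ZP3 minus that of ZP4 was -0.83, -0.93 and -0.89 after maturation and -0.41, -0.58 and -0.76 before it, again without overlap. ZP4 minus ZP2 was 0.16, 0.06 and -0.05 after maturation and 0.29, 0.32 and 0.27 before it, also without overlap. The change in ZP3 minus ZP4 was -0.30 ± 0.10 and that in ZP4 minus ZP2 was -0.24 ± 0.06 (SE). The third of these pairs follows from the other two. An exact two-sided permutation test of 3 arrays against 3 has 20 splits and cannot go below p = 0.1, the value of each pair before and after Benjamini-Hochberg adjustment over the 3 pairs, so unequal change of the zona genes was not established by a test.

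All 3 zona probes were among the brightest on the arrays in both groups. Probe brightness depends on probe sequence as well as on transcript amount, so ranks describe the signals and not the relative abundance of the 3 transcripts. By mean signal over a group, ZP3 ranked 199 of 12258 after maturation against 36 before it. ZP4 ranked 21 after and 5 before maturation, and ZP2 ranked 30 after and 17 before it. In single arrays ZP3 lay between percentiles 97.8 and 98.8 after maturation, against 99.6 to 99.8 before it. ZP4 came close to the top of the scale, at 0.87 to 1.05 log2 units below the brightest probe of the same array after maturation and 0.40 to 0.51 units below it before maturation. Saturation of the signal was not assessed.

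ZP3 had the most negative difference of the 90 probes at least as bright as itself. That cut was placed at the mean of ZP3, which is the dimmest of them. Over all probes 5.58% had a more negative difference, among them the somewhat dimmer GAPDH (-0.88) and HSPA5 (-0.99). Of the 90 probes whose mean over the 6 arrays was at least that of ZP3, 6 were called lower (6.67%) and 0 higher (0%, limma), and at the same brightness 18 had a negative difference of any size. The median difference of these 90 probes was 0.07, and their range ran from -0.70, the value of ZP3, to 0.29. The called probes were ZP3, ZP4, the cytoplasmic actin gene ACTB (-0.50), the constitutive chaperone gene HSPA8 (-0.47), the calreticulin gene CALR (-0.36), which encodes a folding factor for glycoproteins, and 1 probe without a gene name here. ACTB, HSPA8 and CALR were picked out after their values had been seen, and all 3 had values near or above 0 (0.0010, 0.031 and 0.14) with ribosomal protein genes held level.

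**Figure D2:**
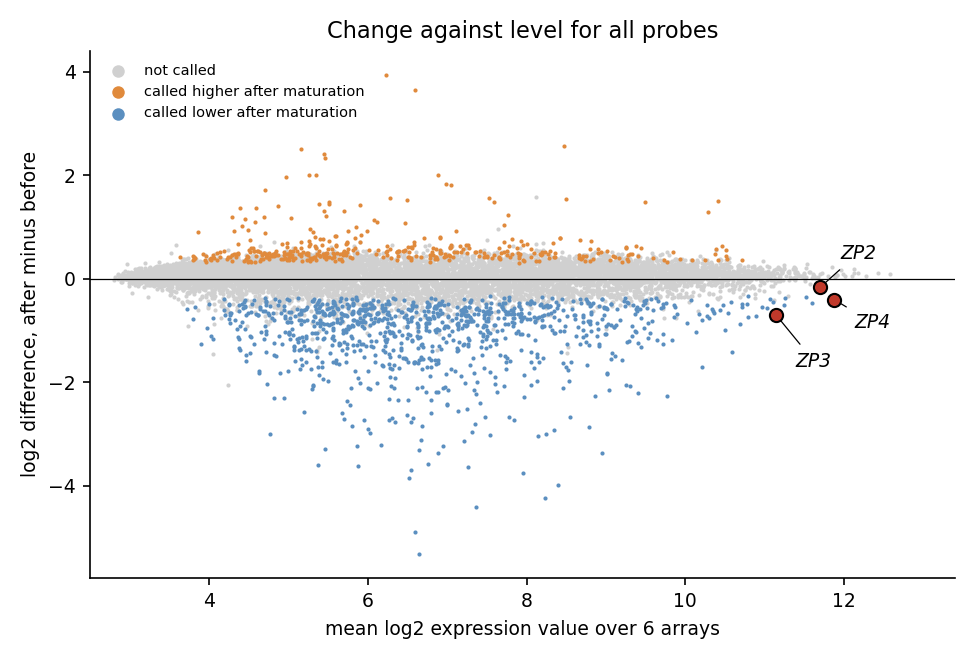
Log2 difference after minus before maturation (vertical axis) against the mean log2 value over the 6 arrays (horizontal axis) for all 12258 probes, with blue for probes called lower, orange for probes called higher and grey for the others, and the 3 zona genes in red. ZP3 (-0.70), ZP4 (-0.40) and ZP2 (-0.16) lie at the bright end, where most probes are close to 0; with ribosomal protein genes held level all differences move up together.

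Next the zona genes were set beside other genes that oocytes express. Of 25 listed oocyte markers 20 were measured. Among these 0 were called higher (0%, against 3.21% of all probes), 1 lower (5%, against 8.07%) and 19 neither. Both shares are close to those of all probes. Their median difference was 0.07, against 0.08 for all probes. Ordered by difference, KIT, the receptor for the kit ligand of granulosa cells, came first of 23 genes at -1.22 (limma adjusted p = 0.00110). ZP3, ZP4 and ZP2 took the next places. The place of ZP2 (-0.16) is not set apart from the markers that follow, OOEP (-0.14) and ZAR1 (-0.13). The 19 oocyte markers other than KIT ran from -0.14 to 0.37, the upper end being NPM2, a nucleoplasmin gene, whose value was not called (limma adjusted p = 0.0950). GDF9 and BMP15, whose products are oocyte-secreted growth factors, had values of 0.06 (95% interval -0.14 to 0.25) and 0.11 (-0.08 to 0.30). MOS, whose kinase holds the mature egg in meiotic arrest, had a value of 0.04 (-0.17 to 0.25). The intervals of ZP3 (-0.99 to -0.41) and ZP4 (-0.62 to -0.18) lay wholly below the estimates of these 3 genes, and the difference between them was not tested. Holding the mean of the 20 oocyte markers level between arrays left the zona values at -0.72 for ZP3, -0.43 for ZP4 and -0.19 for ZP2, of which ZP3 and ZP4 were called.

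**Figure D3:**
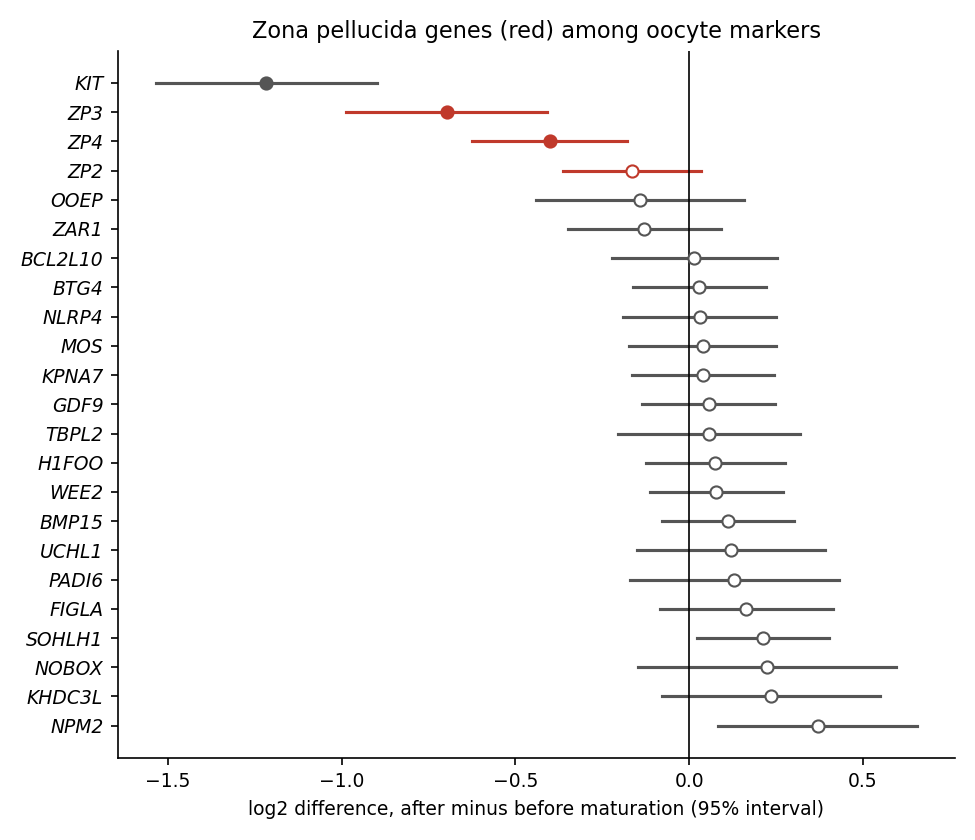
Log2 difference after minus before maturation with its 95% interval (horizontal axis) for the 3 zona genes (red) and 20 oocyte markers (grey), ordered by difference, with filled points for genes called by limma on the deposited scale. ZP3, ZP4 and ZP2 stand below all the oocyte markers except KIT (-1.22). ZP2 (-0.16) does so by little, next to OOEP (-0.14) and ZAR1 (-0.13), with overlapping intervals. A shift of all values by a common amount, as with ribosomal protein genes held level, would keep this order.

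Regulators of zona gene expression were examined next. In mice FIGLA, a basic helix-loop-helix factor, binds with a partner encoded by TCF3 and coordinates zona gene expression. FIGLA had a log2 level of 6.97 ± 0.16 after and 6.81 ± 0.07 before maturation (SD, n = 3 each) and was not called (difference 0.16, limma adjusted p = 0.339). NOBOX, a homeobox regulator of oocyte genes, differed by 0.22 (adjusted p = 0.385). Of 11 measured regulators on the list, 3 were called lower and 0 higher, with a median difference of 0.05, against 8.07% and 3.21% of all probes and a median of 0.08. The 3 were ID2 (-3.99) and ID1 (-1.58), which encode inhibitors of basic helix-loop-helix factors, and TCF4 (-0.92), which encodes an E protein of the same class as that of TCF3. TCF3 itself, picked out after its value had been seen, stood at 7.51 ± 0.04 after and 7.12 ± 0.22 before maturation (SD, n = 3 each), without overlap and in the other direction, and was not called (difference 0.39, limma adjusted p = 0.0774). With arrays at a common median, or after a second quantile normalization, 1 regulator was called higher. Without moderation 1 was called higher and 1 lower. With ribosomal protein genes held level by their mean 8 were called higher and 3 lower, beside 9847 and 494 of all 12258 probes. Of other genes with a ZP domain 7 of 12 were measured, and 1 was called lower, TGFBR3 (-2.35), the co-receptor for TGF-beta ligands. ZPLD1 had a value of -0.43 and was not called, with overlapping groups (limma adjusted p = 0.162). Its mean after maturation (4.13) lay below the lower quartiles of those arrays (4.33 to 4.45).

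Genes that fold, glycosylate and cleave secreted glycoproteins, through which zona proteins pass on their way to the surface, mostly fell on the deposited scale. Of 23 measured genes 13 were called lower and 0 higher, with a median difference of -0.47, against 0.08 for all probes and 8.07% of all probes called lower. The chaperone gene HSPA5 had a log2 level of 10.01 ± 0.10 after and 11.00 ± 0.24 before maturation (SD, n = 3 each), a difference of -0.99 (limma adjusted p = 0.00248). MGAT2, an enzyme gene of N-glycan branching, fell by 0.93, and PCSK6, a proprotein convertase gene, fell by 0.82. DDOST and RPN2, subunits of the enzyme that transfers N-glycans to proteins, fell by 0.68 and 0.58. The count depended on the model of the spread, the scaling and single arrays. Without moderation 1 gene was called lower, and the 5 named here all lost their calls. When ribosomal protein genes were held level by their mean, 2 were called lower and 6 higher, beside 494 and 9847 of all 12258 probes. In that fit the median of the 23 genes was 0.03, against 0.58 for all probes. Without replicate 1, 2 or 3 after maturation or replicate 3 before it, 4, 5, 8 and 8 were called lower.

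On the side of the zona's use at fertilisation, genes of cortical granule release and of the zona block were examined. Of the 13 on the array 2 were called higher (15.4%, against 3.21% of all probes) and 1 lower (7.69%, against 8.07%), with a median difference of 0.13. SYT1, a calcium sensor gene of exocytosis, rose by 0.70, with log2 levels of 6.09 ± 0.09 after and 5.39 ± 0.09 before maturation (SD, n = 3 each; limma adjusted p = 0.00291). VAMP1, a vesicle fusion gene, was called at 0.46 and OVGP1, the oviductin gene, at -0.52, and neither call was stable. OVGP1 was dim, at 4.18 after and 4.71 before maturation. Its value after maturation lay below the lower quartiles of those arrays (4.33 to 4.45). VAMP1 lost its call without any one of the 6 arrays (limma adjusted p = 0.0530 to 0.148), and OVGP1 lost it in 5 of those 6 fits. ASTL, the ovastacin gene, had levels of 9.72 ± 0.26 after and 9.47 ± 0.59 before maturation (SD, n = 3 each), and its difference of 0.25 had an interval of -0.37 to 0.87. Of 4 measured genes of the egg membrane 3 were called lower (75%, against 8.07% of all probes). CD9, a tetraspanin gene needed for sperm-egg fusion in mice, had log2 levels of 4.92 ± 0.18 after and 6.53 ± 0.48 before maturation (SD, n = 3 each; limma adjusted p = 0.00291). The CD9 level after maturation lay below the medians of those arrays (5.62 to 5.64). The integrin gene ITGB1 differed by -1.45, and PTGFRN, whose product associates with that of CD9, by -3.13. GAPDH, a glycolytic enzyme gene named with the fixed set, stood at 10.25 ± 0.19 after and 11.13 ± 0.20 before maturation (SD, n = 3 each), a difference of -0.88 (limma adjusted p = 0.00503).

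The zona is crossed by thin projections of the cumulus cells that reach the oocyte, and genes of this contact were examined last. Of 10 measured genes 4 were called lower and 0 higher, with a median difference of -0.22, against 8.07% of all probes called lower and a median of 0.08. FSCN1, the actin-bundling fascin gene, fell by 2.67, the connexin gene GJA1 fell by 2.27, CDH2, the N-cadherin gene, fell by 1.76, and KIT is given above. The list of cumulus and granulosa cell markers shares GJA1 and KITLG with the contact genes. Of its 20 measured markers 8 were called lower (40%, against 8.07% of all probes), GJA1 among them. Another 7 were called higher (35%, against 3.21%). The mean log2 level of those 20 markers ranged from 6.36 to 6.52 after maturation and from 6.65 to 6.95 before it. Among them SERPINE2 (-2.92) and HSD17B1 (-4.41) fell, while HSD3B1 (3.95) and HAPLN1 (2.51) rose. Of 4 measured leukocyte markers 1 was called higher (25%, against 3.21% of all probes), CD3E (0.48), and TYROBP had a value of 0.41. CD3E lost that call in 5 of the 6 fits that left out an array (limma adjusted p = 0.0866 to 0.122). With the replicate number as a block 2 leukocyte markers were called higher, as were 621 of all 12258 probes. Of 4 endothelial markers 0 were called by limma, 2 at an unadjusted p under 0.05, with SOX17 at 0.51 and KDR at 0.23. KDR, at 3.71 after and 3.47 before maturation, lay below the lower quartile of every array. SOX17 was called with the replicate number as a block. The part of cumulus cells in the zona gene values was not tested.

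**Figure D4:**
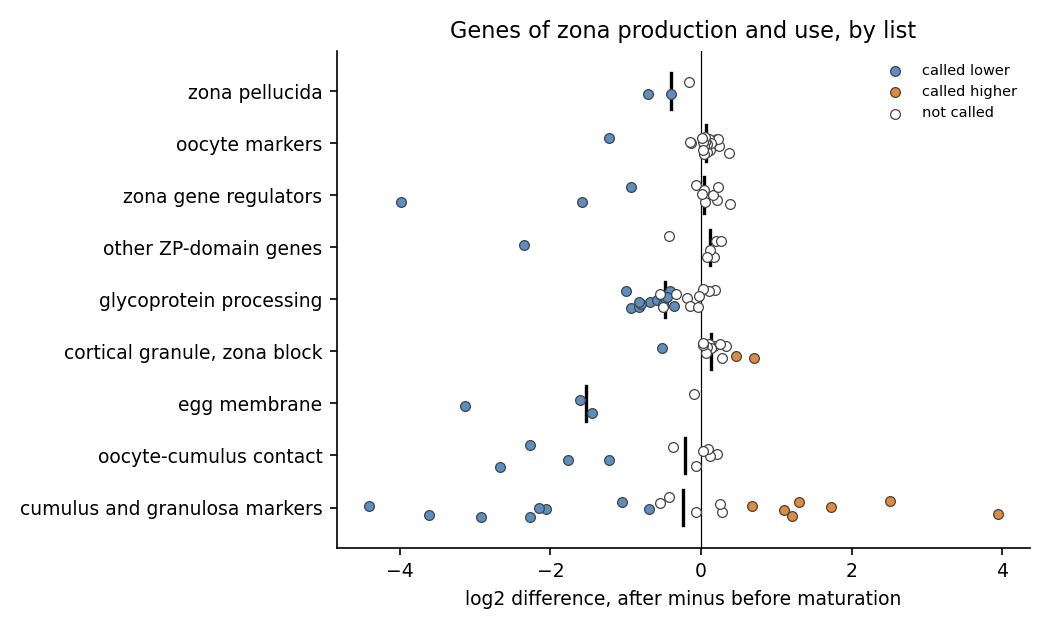
Log2 difference after minus before maturation (horizontal axis) for each measured gene of 9 lists, with blue points called lower, orange points called higher, white points not called, and a black bar for the median of each list on the deposited scale. The zona genes lie left of nearly all oocyte markers, ZP2 by little. The glycoprotein processing genes lie mostly left of 0 (median -0.47). With ribosomal protein genes held level by their mean, the processing genes have a median of 0.03, against 0.58 for all probes.

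Genes with profiles most like those of the zona genes were found from the root-mean-square difference of log2 values over the 6 arrays, each gene centred on its own mean, among 5401 named genes with a mean level above the median probe. For ZP3 the nearest were C10H1orf115 (0.07), the sugar transporter gene SLC50A1 (0.08), YIPF3 (0.09), RNF167 (0.09) and SMAD6 (0.09), an inhibitor gene of BMP signalling, where the values are root-mean-square log2 differences. All 5 were called lower, with differences of -0.80, -0.73, -0.78, -0.63 and -0.75. For ZP4 the nearest were the collagen gene COL4A2 (0.05), the Mediator subunit gene MED12 (0.06), RLIM (0.06), CACHD1 (0.06) and TMED4 (0.07), a gene of early secretory transport. Their differences ran from -0.40 to -0.33, and 4 of them were called lower, COL4A2 being the exception. For ZP2 the nearest were CNOT1 (0.03), which encodes the scaffold of a deadenylase complex, TCTN1 (0.03), COPA (0.04), a coatomer gene, CD63 (0.04) and CLASP2 (0.04), with differences of -0.19 to -0.09, of which 0 were called. ZP3 and ZP4 were at 0.18 from each other, ZP2 and ZP4 at 0.13, and ZP2 and ZP3 at 0.30. The genes named above lay closer, but they were the smallest distances among 5401 genes. Whether the zona genes change together cannot be read from that comparison. This measure includes the difference between the 2 groups as well as the spread within them. Genes near a zona gene therefore share its difference largely by selection. Their calls, beside 8.07% of all probes called lower, are not a separate result.

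The sign of the zona differences depended on what was held level. On the deposited scale the median probe differed by 0.08, and relative to it ZP3 stood at -0.78, ZP4 at -0.48 and ZP2 at -0.24. With ribosomal protein genes held level by their mean the median probe moved to 0.58. ZP3 then stood at -0.20, ZP4 at 0.10 and ZP2 at 0.34, all below that median. ZP2 was called higher (limma adjusted p = 0.0457), as were 9847 of all 12258 probes in that fit. Of the 18 alternatives, 7 leave every difference as it was or add 1 amount to all of them, so they cannot move a gene relative to the median probe. Over the other 11, ZP3 ran from -0.86 to -0.67 relative to the median probe, ZP4 from -0.54 to -0.42 and ZP2 from -0.29 to -0.21. The 41 ribosomal protein probes themselves had a mean difference of -0.50 on the deposited scale, so that scaling assumes that they did not change. Of the 18 alternatives ZP3 was called lower in 15, ZP4 in 8 and ZP2 in 0. ZP2 was called higher in 2, those that hold ribosomal protein genes level.

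**Figure D5:**
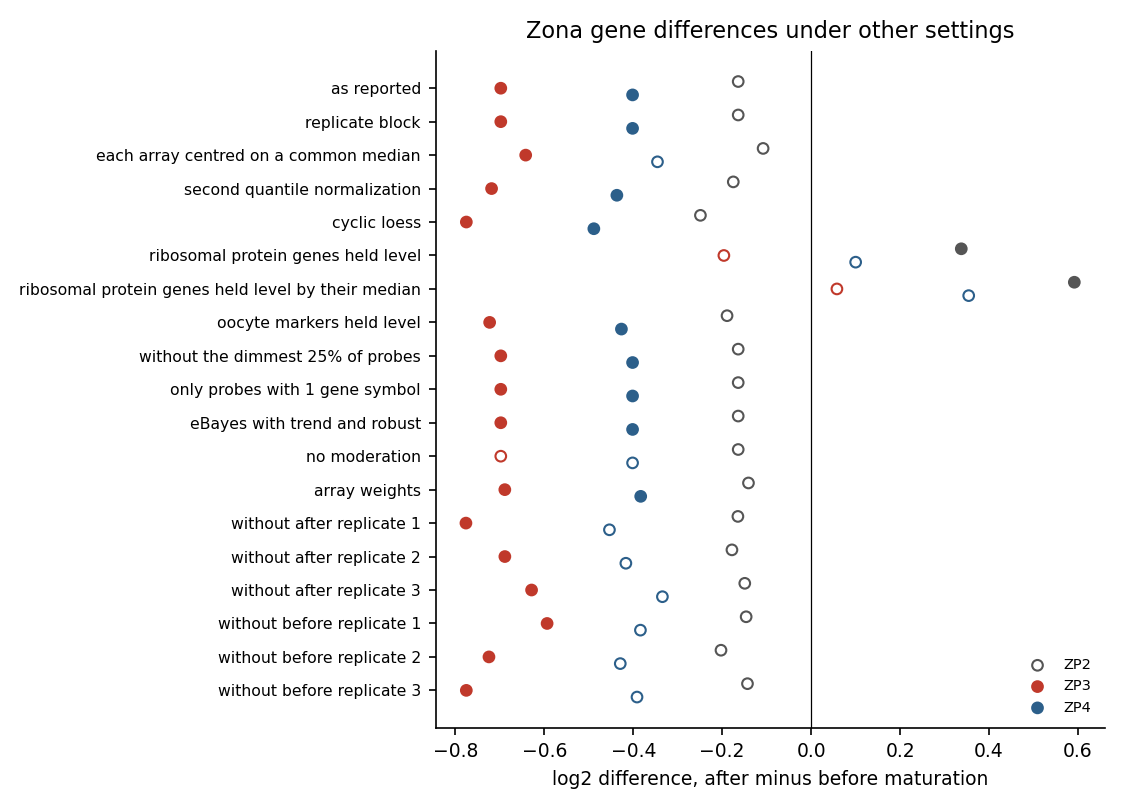
Log2 difference after minus before maturation (horizontal axis) of ZP2 (grey), ZP3 (red) and ZP4 (blue) as reported and under 18 other settings (rows), with filled points where limma or the named model gave an adjusted p under 0.05. ZP3 is the lowest of the 3 in every row, and the values cross 0 only in the 2 rows that hold ribosomal protein genes level.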

How the data were processed

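Total RNA of pooled oocytes (100 ng) went through 2 rounds of sense cDNA amplification before labelling and hybridisation, per the labels' protocols. The deposited table holds log2 expression values that the authors made with RMA, per the submitters' processing notes. The version and options of RMA and any filter on probes were not given in the sources used here. The base of the logarithm was taken as 2 from the method and the span of the values. Array medians ran from 5.62 to 5.64 after maturation and from 5.67 to 5.70 before it. Correlations across probes were 0.994 to 0.995 after maturation, 0.989 to 0.993 before it and 0.965 to 0.983 between the groups. Without detection calls, signal over background was not assessed.

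Of 12258 probes 10922 had 1 gene symbol, 268 several and 1068 none listed. Older symbols were replaced by those of the Sscrofa11.1 RefSeq table where an identifier matched. No nucleotide or protein sequence of the zona genes was used here. All probes were fitted with limma 3.58.1 in R 4.3.3 (lmFit, eBayes, two-sided, Benjamini-Hochberg over all probes, threshold 0.05), after minus before maturation, on the deposited log2 values. Intervals are limma's at 95%. The fit was tested on simulated data with known changes and noise independent between arrays. Shared deviations of same-numbered arrays were not simulated. Tables and exact tests were made with Python 3.11.15, pandas 2.3.3 and scipy 1.17.1, and figures with matplotlib 3.10.9.

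Same-numbered arrays deviated together from their group means (correlations of 0.28, 0.12 and 0.14), which met the criterion for pairing, although the labels do not state what a number shares. The main fit, its intervals and the exact test leave a pairing by number out, and the block is an alternative. The zona genes and the gene lists were chosen with earlier results of these data known. Genes of each list were named as the called ones with the smallest p (at most 5, or the 2 smallest where fewer than 2 were called), beside a fixed set of 8 genes and the 5 most similar genes per zona gene. The alternatives were the block, 6 other scalings, 2 filters, 3 models of the spread and leaving out each of the 6 arrays. The precision is limited by the number of arrays.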

Additional observations from a re-analysis of the deposited data

How the results depend on the processing

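The zona differences kept their sign in all alternatives except those that hold ribosomal protein genes level. Held level by the mean of these genes, ZP2 turned to 0.34, called higher, and ZP4 to 0.10, while ZP3 lost its call at -0.20. Held level by their median, an alternative added after the data were seen, ZP2 turned to 0.59, ZP3 to 0.058 and ZP4 to 0.35. By construction these scalings add 1 amount to every difference. Zona genes called lower then numbered 0 and called higher 1 under each. Of all 12258 probes, 9847 were called higher under the mean and 10712 under the median. Without moderation of the spread ZP3 (-0.70) and ZP4 (-0.40) lost their calls, leaving 0 called lower, and with each array at a common median ZP4 (-0.35) lost its call, leaving 1. Leaving out single arrays left 1 zona gene called lower each time, ZP3, with ZP4 at -0.45 to -0.33. Within-array differences between zona genes kept their sign in every alternative run.

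With the replicate number as a block, ZP3 (-0.70, adjusted p = 0.00292) and ZP4 (adjusted p = 0.0382) stayed called and no zona call changed. Over all probes the block called 621 higher, against 394 without it. Among other named genes it ended the call of CACHD1 and added one for SOX17. Probes called higher numbered 915 at a common median, 596 after a second quantile normalization, 254 with cyclic loess, 50 without moderation, and 9847 and 10712 with ribosomal protein genes held level by mean and by median. Probes called lower numbered 147 without moderation, and 494 and 306 under the 2 ribosomal scalings. Leaving out single arrays gave 103 to 434 called higher (103, 119 and 204 without replicate 1, 2 or 3 after maturation, 258 and 166 without replicate 2 or 3 before it) and 531 to 1013 called lower (531 and 545 without replicate 1 or 2 after maturation).

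Of 916 values of 54 other named genes under alternatives, 19 changed sign, 106 lost a call and 16 gained one. Of the 37 called genes, 24 lost the call without moderation, among them HSPA5, MGAT2, DDOST, RPN2, PCSK6, ID1, TCF4, ITGB1, CD9, KIT and GAPDH, and 5 to 10 lost it without a single array. Sign changes under the mean ribosomal scaling were ZPLD1 (0.075), ACTB (0.0010), HSPA8 (0.031), CALR (0.14), CNOT1 (0.33), TCTN1 (0.31), COPA (0.37), CD63 (0.41), CLASP2 (0.39), COL4A2 (0.17), MED12 (0.11), RLIM (0.11), CACHD1 (0.16) and TMED4 (0.12). After a second quantile normalization CD63 turned to 0.047 and CLASP2 to 0.036. With cyclic loess GDF9 turned to -0.020 and MOS to -0.042, and single left-out arrays gave MOS values of -0.0039 to 0.078. The mean of several probes was not run, since each zona gene has 1 probe. The causes were not tested. Signal over background and saturation were not assessed.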
